A study of Macaca mulatta with 10 samples.

Results

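Cells make cholesterol from acetyl-CoA through the mevalonate pathway, and RNA levels of genes of that pathway were examined in rhesus monkeys. The set consisted of *SREBF2*, *HMGCS1*, *IDI1*, *FDFT1*, *SQLE*, *LSS* and *DHCR7*, and its members were found by matching Ensembl macaque gene IDs to symbols. Of these 7 genes, 6 were matched among the 28595 genes of the files, each to 1 row. *FDFT1*, the squalene synthase, was not matched and is not analysed here. The set holds enzymes and the regulator of synthesis.

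RNA-Seq came from skeletal muscle and adipose tissue of 5 male rhesus monkeys (*Macaca mulatta*), with 1 strand-specific poly(A) library per animal and tissue, 10 libraries in all. The monkey labelled rhesus_950807 was hyperinsulinemic and heterozygous for a nonsense mutation of *PRKD2*, which encodes protein kinase D2, and by the study's account it was also obese and insulin resistant. Monkeys labelled rhesus_920401, rhesus_940129, rhesus_940313 and rhesus_950509 were controls. The ages of these 5 animals and the depot of the adipose tissue are not stated in these sources. With 1 hyperinsulinemic animal, its genotype, its insulin level, its obesity and its individual traits cannot be told apart.

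Early in the pathway *HMGCS1* makes HMG-CoA and *IDI1* interconverts the isoprenoid building blocks, which also feed dolichol, ubiquinone and protein prenylation. *SQLE* then oxidises squalene, *LSS* folds the product into lanosterol, and *DHCR7* reduces 7-dehydrocholesterol to cholesterol at the end of the route. *SREBF2* encodes SREBP-2, a membrane-bound transcription factor that is released when sterols in the endoplasmic reticulum are low and that drives the genes of the pathway. Adipose tissue stores much of the body's free cholesterol, while the liver makes far more of it than muscle does.

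On the coordinates of the files, whose genome build is not stated in the sources used here, *SREBF2* (ENSMMUG00000003357) lies on chromosome 10 from 85821766 to 85865415, plus strand. *HMGCS1* (ENSMMUG00000001226) lies on chromosome 6 from 43241607 to 43266001, minus strand. *IDI1* (ENSMMUG00000017115) lies on chromosome 9 from 1220055 to 1227264, minus strand. *SQLE* (ENSMMUG00000003535) lies on chromosome 8 from 127601581 to 127625554, plus strand. *LSS* (ENSMMUG00000022329) lies on chromosome 3 from 557390 to 596194, plus strand. *DHCR7* (ENSMMUG00000011976) lies on chromosome 14 from 3469794 to 3480596, plus strand. The transcripts that the files use for length range from 945 bases for *IDI1* to 4997 bases for *SREBF2*, so levels are compared between genes only as RPKM, reads scaled by the length of the transcript and the mapped total of the library.

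Mapped reads numbered 41780234 in the adipose library of rhesus_950807 and 30669915 to 39379286 in those of the controls, and 33961486 in the muscle library of rhesus_950807 and 35682861 to 43268985 in those of the controls. The tissues carried their labels: the adipocyte hormone *ADIPOQ* was at 631 to 1491 RPKM in the 5 adipose libraries and at 2.06 to 15.4 RPKM in muscle. The row matched to *FABP4*, also on the adipocyte list, was lower in adipose tissue, at 0.254 to 3.44 RPKM against 27.7 to 68.7 RPKM in muscle. It so went against the name of its list. The match of this row to its symbol may be wrong and was not tested. The muscle actin *ACTA1* was at 1.72 RPKM in the adipose library of rhesus_950807, against 101 and 80.9 RPKM in those of controls rhesus_920401 and rhesus_940313 and 1.18 and 0.444 RPKM in those of rhesus_940129 and rhesus_950509. Adipose results are therefore also given without the libraries of rhesus_920401 and rhesus_940313. In these libraries *CKM*, *MB* and *TNNC2* were likewise higher, while *PYGM*, *TNNT1* and *TNNT3* did not set them apart. *PYGM* was at 79.4 RPKM in the adipose library of rhesus_940129, against 14.8 and 18.2 RPKM there. The 7 matched markers of muscle fibers summed to 334 and 224 RPKM there, 122 RPKM in rhesus_940129 and 35.1 RPKM in rhesus_950509. In the kept library of rhesus_940129 that sum was mostly *PYGM* and *TNNT3* (30.6 RPKM). *CKM*, *MB* and *TNNC2* were at 0.673, 1.51 and 1.25 RPKM in it. The source of its *PYGM* and *TNNT3* reads was not tested. *PRKD2* itself was at 0.387 RPKM in the muscle of rhesus_950807, against 1.14 to 1.79 RPKM in control muscle, and at 3.66 RPKM in its adipose tissue, against 3.27 to 6.12 RPKM in control adipose tissue.

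*SREBF2* was the most abundant member in every library, and *SQLE* the least. In adipose tissue *SREBF2* was at 42.6 RPKM in rhesus_950807, against 32.1, 56.4, 26.5 and 38.5 RPKM in controls rhesus_920401, rhesus_940129, rhesus_940313 and rhesus_950509. Its level in rhesus_950807 lay inside the control range, with rhesus_940129 the highest of the 5 animals and rhesus_940313 the lowest. In muscle *SREBF2* was at 11.7 RPKM in rhesus_950807, against 14.4, 11.9, 12.0 and 11.5 RPKM in the same controls. The control muscles differed by 1.26-fold at most, the narrowest spread of any member in either tissue, and rhesus_950807 again lay among them.

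*HMGCS1*, the cytosolic HMG-CoA synthase, was at 7.43 RPKM in the adipose tissue of rhesus_950807, against 5.36, 3.75, 5.76 and 10.5 RPKM in controls rhesus_920401, rhesus_940129, rhesus_940313 and rhesus_950509. In muscle it was at 2.86 RPKM in rhesus_950807, against 0.707, 0.908, 1.23 and 1.89 RPKM in those controls. The muscle of rhesus_950807 was thus above all 4 controls, while its adipose tissue was exceeded by that of rhesus_950509. These muscle levels rested on 324 reads in rhesus_950807, against 91 to 229 reads in controls.

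*IDI1*, the isopentenyl diphosphate isomerase, was at 10.7 RPKM in the adipose tissue of rhesus_950807, against 6.96, 2.45, 11.9 and 12.2 RPKM in controls rhesus_920401, rhesus_940129, rhesus_940313 and rhesus_950509. In muscle it was at 9.53 RPKM in rhesus_950807, against 2.77, 5.43, 2.20 and 3.64 RPKM in those controls. As with *HMGCS1*, the muscle of rhesus_950807 was above all 4 controls. *IDI1* was also the member whose control adipose levels spread the most, 4.99-fold from the lowest, rhesus_940129, to the highest, rhesus_950509.

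*SQLE*, squalene epoxidase, was at 1.68 RPKM in the adipose tissue of rhesus_950807, against 0.818, 2.25, 0.867 and 1.64 RPKM in controls rhesus_920401, rhesus_940129, rhesus_940313 and rhesus_950509. In muscle it was near the limit of what this depth counts, at 20 reads in rhesus_950807, against 16, 18, 2 and 25 reads in those controls. Its muscle level in rhesus_950807 was 0.201 RPKM, with an exact Poisson interval (95%) of 0.123 to 0.310 RPKM that covers counting error only, against 0.0158 to 0.234 RPKM in controls.

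*LSS*, lanosterol synthase, was at 8.30 RPKM in the adipose tissue of rhesus_950807, against 6.34, 15.3, 5.27 and 11.7 RPKM in controls rhesus_920401, rhesus_940129, rhesus_940313 and rhesus_950509. In muscle it was at 0.427 RPKM in rhesus_950807, against 0.739, 0.855, 0.318 and 1.14 RPKM in those controls. *LSS* lay below the control mean of muscle in rhesus_950807 but above control rhesus_940313.

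*DHCR7*, whose enzyme catalyses the final step, was at 6.49 RPKM in the adipose tissue of rhesus_950807, against 3.60, 9.11, 3.79 and 4.97 RPKM in controls rhesus_920401, rhesus_940129, rhesus_940313 and rhesus_950509. In muscle it was at 0.912 RPKM in rhesus_950807, against 0.390, 0.492, 0.280 and 0.299 RPKM in those controls. The muscle value of rhesus_950807 came from 74 reads and was above all 4 controls, which had 26 to 42 reads.

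**Figure D1:**
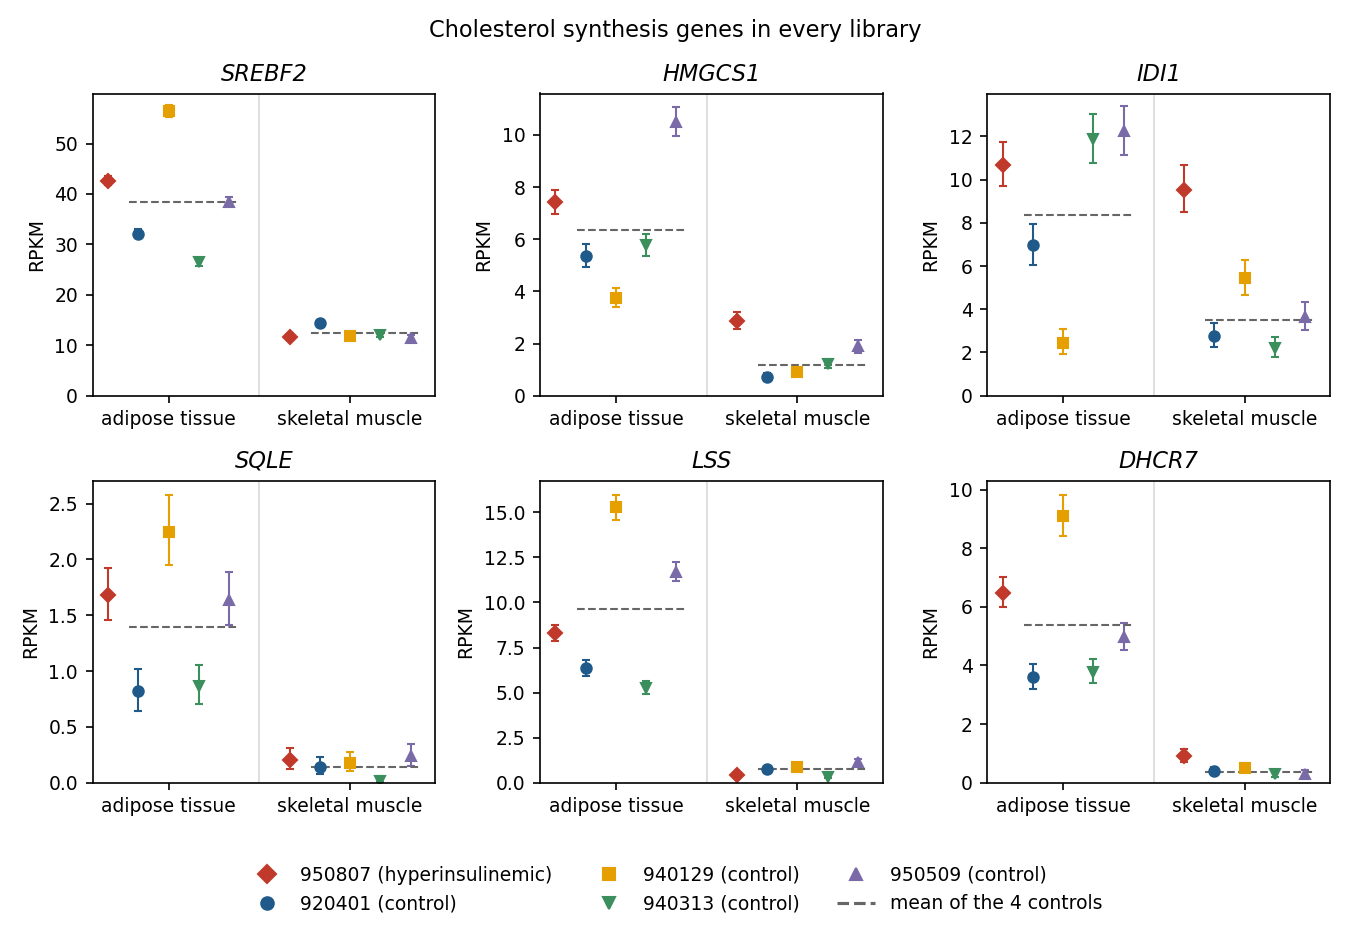
RPKM of the 6 matched cholesterol synthesis genes in each of the 10 libraries, with adipose tissue on the left and skeletal muscle on the right of each panel. Points are single libraries, bars are exact Poisson intervals (95%) of the read counts, and dashed lines are the means of the 4 controls. In muscle rhesus_950807 lies above every control for *HMGCS1*, *IDI1* and *DHCR7*.

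Ordered by the control mean, adipose tissue held *SREBF2* at 38.4 ± 13.0, *LSS* at 9.65 ± 4.69, *IDI1* at 8.38 ± 4.62, *HMGCS1* at 6.34 ± 2.90, *DHCR7* at 5.37 ± 2.57 and *SQLE* at 1.39 ± 0.682 RPKM (SD, n = 4). The ranges of the 4 members from *LSS* to *DHCR7* overlapped one another, so their order does not exceed the spread between animals. Control muscle held *SREBF2* at 12.5 ± 1.34, *IDI1* at 3.51 ± 1.41, *HMGCS1* at 1.18 ± 0.517, *LSS* at 0.764 ± 0.342, *DHCR7* at 0.365 ± 0.0972 and *SQLE* at 0.141 ± 0.0919 RPKM (SD, n = 4). There *IDI1* stood apart from *HMGCS1* in every control, while the ranges of *HMGCS1* and *LSS* overlapped, as did those of *LSS* and *DHCR7*, and *DHCR7* stood above *SQLE* in every control.

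The members did not all vary together between the control animals. In adipose tissue control rhesus_940129 had the highest level of the 5 animals for *SREBF2*, *SQLE*, *LSS* and *DHCR7*, and the lowest level for *HMGCS1* and *IDI1*. Among the controls rhesus_950509 was next highest for the first group and highest for *HMGCS1* and *IDI1*, so each group shared an order at its top. Relative to the mean of the 4 controls on the log2 scale, rhesus_940129 was at 0.56 for *SREBF2*, 0.69 for *SQLE*, 0.66 for *LSS* and 0.76 for *DHCR7*, but at -0.76 for *HMGCS1* and -1.77 for *IDI1*. The other enzymes of cholesterol synthesis, a list of 13 genes of which 8 were matched, mostly had their highest level in the same library. In that list 7 of 8 were highest in rhesus_940129, for example *MVD*, the mevalonate diphosphate decarboxylase (29.1 RPKM, against 7.0 RPKM in rhesus_950807 and 4.72 to 6.05 RPKM in the other controls). *LBR*, a sterol reductase that also anchors the nuclear lamina, was the exception and was lowest there, at 3.06 RPKM.

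Over the 11981 genes that averaged 1 RPKM or more in adipose tissue, rhesus_940129 was the highest of the 5 libraries for 25.5% and the lowest for 34.7%. The summed RPKM of 9 matched adipocyte markers was also highest in rhesus_940129, at 7834 RPKM, against 5314 RPKM in rhesus_950807 and 3248 to 6642 RPKM in the other controls. The list was split: *ADIPOQ*, *CIDEC*, *LIPE*, *PPARG* and *GPD1* were highest in rhesus_940129, while *PLIN1*, *PLIN4* and *LEP* were not. The row matched to *FABP4*, whose match is in doubt, was lowest there. *FASN*, the fatty acid synthase, was at 2142 RPKM in rhesus_940129, against 68.7 RPKM in rhesus_950807 and 57.9 to 801 RPKM in the other controls. The part of the adipocyte content in the pattern of rhesus_940129 was not tested. In bulk tissue fewer cells of a type and less RNA per cell cannot be told apart. The pattern comes from 1 library. In muscle the same animal was the highest control for *IDI1* and *DHCR7* and the lowest for none of the 6 members.

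**Figure D2:**
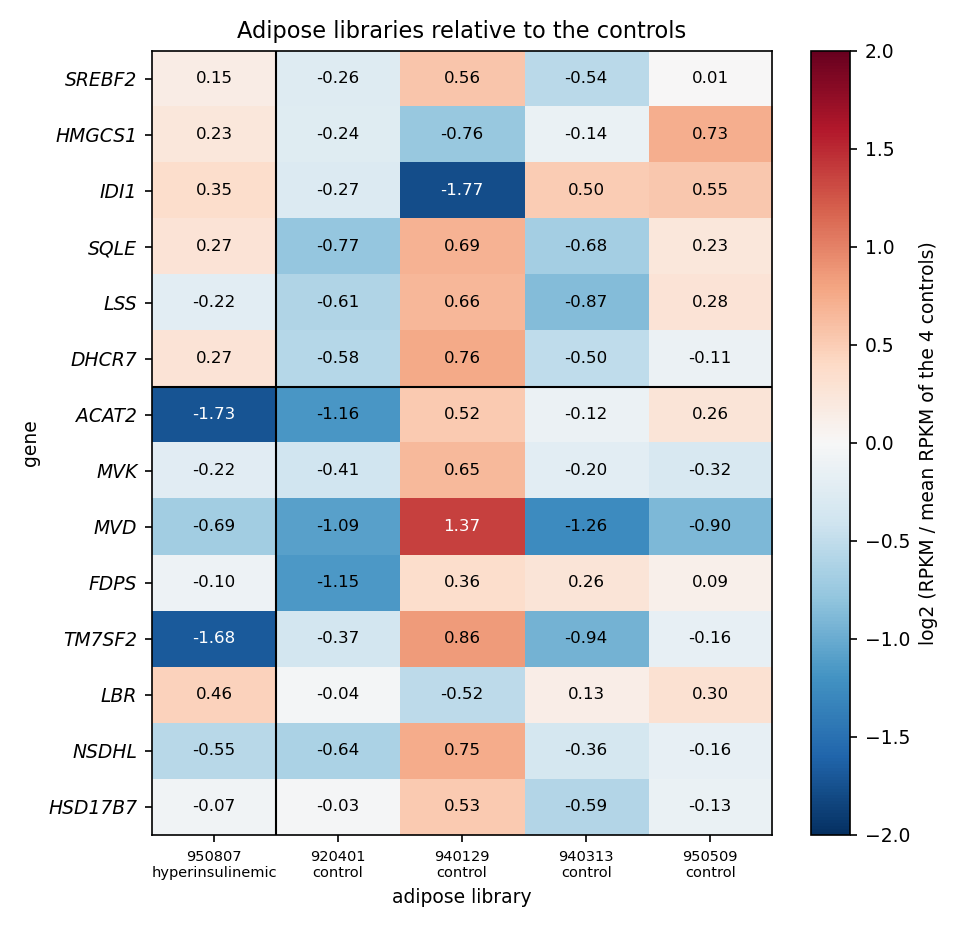
Log2 of the RPKM in each of the 5 adipose libraries over the mean of the 4 controls, for the 6 members above the line and the 8 matched other enzymes of cholesterol synthesis below it. Control rhesus_940129 is above the mean for 11 of 14 genes and below it for *HMGCS1*, *IDI1* and *LBR*.

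The first comparison asked whether the hyperinsulinemic monkey differed from the 4 controls in muscle. *IDI1* and *HMGCS1* were each more than 2-fold higher by estimate, *SREBF2* was not higher, and none of these differences passed the test across all genes. Counts were scaled by TMM, which sets the bulk of the genes equal between libraries, and tested with the quasi-likelihood test of edgeR over 8306 genes that averaged 1 RPKM or more. *SREBF2*, *HMGCS1* and *IDI1* were tested, and *SQLE*, *LSS* and *DHCR7* were below the minimum. *IDI1* was higher by 1.27 on the log2 scale (standard error 0.515, 95% interval from 0.11 to 2.42), with an edgeR adjusted p = 0.517, and it was the 1 member whose unadjusted edgeR p was under 0.05. *HMGCS1* was higher by 1.09 (standard error 0.540, 95% interval from -0.13 to 2.30, edgeR adjusted p = 0.596). Its unadjusted edgeR p was 0.042 with no minimum and 0.028 with scaling to mapped totals (edgeR adjusted p of 0.633 and 0.421). On that threshold its contrast with *IDI1* thus depends on the setting. *SREBF2* had a difference of -0.26 (standard error 0.259, 95% interval from -0.84 to 0.32, edgeR adjusted p = 0.80).

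Of the 3 members tested in muscle, edgeR called 0, against 0% of all genes tested. At an unadjusted p under 0.05 there was 1 member and 754 of all genes, and DESeq2 called 0 members and 88 of all genes. The median log2 difference was 1.09 over the 3 members and -0.03 over all genes. By RPKM rhesus_950807 lay above all 4 controls for *HMGCS1* and *IDI1*, 2 of the 3 members tested, and for 34.9% of all genes tested. It lay below all 4 controls for 0 of the 3 members and for 15.2% of all genes tested. With no minimum it lay above all 4 controls for 3 of 6 members, *DHCR7* included, and for 29.1% of genes with at least 1 read. The fit with no minimum gave log2 differences of 1.16 (standard error 0.809) for *DHCR7*, -1.01 (standard error 0.709) for *LSS* and 0.34 (standard error 1.46) for *SQLE*, with edgeR adjusted p of 0.818, 0.819 and 0.964. These 3 members had 20 to 74 reads in rhesus_950807, and none was called.

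The spread in this test comes from the 4 controls, and the lone animal is assumed to vary as they do. Leaving out each control in turn gave 1.07 to 1.54 for *IDI1* and 0.88 to 1.46 for *HMGCS1*. As rhesus_950807 lay above all 4 controls for both genes, the positive sign was set beforehand and adds no support. Some marker lists lay outside the control range beside these genes. The 8 smooth muscle and pericyte markers summed to 60.1 RPKM in the muscle of rhesus_950807, against 99.9 to 142.9 RPKM in controls, with 0 of 8 called, and the 8 matched macrophage markers to 12.4 RPKM, against 14.5 to 45.0 RPKM in controls, with 0 of 5 tested called. The 7 matched markers of muscle fibers summed to 85889 RPKM, against 66579 to 87062 RPKM in controls, a sum that *ACTA1*, *TNNC2* and *CKM* dominate. Within that list *TNNT1*, the troponin T of slow fibers, named here after its values were seen, was at 14.3 RPKM in rhesus_950807, against 69.7 to 651 RPKM in controls, with a log2 difference of -4.20 (standard error 1.35, edgeR adjusted p = 0.482). The 7 matched endothelial markers summed to 29.2 RPKM, against 29.3 to 47.1 RPKM in controls. The T and NK cell, mesothelial and steroidogenic lists, of which no gene was tested in muscle, were also outside the control range, at 0.298 against 0.426 to 2.87 RPKM, 0.127 against 0 to 0.0170 RPKM and 0.120 against 0.150 to 0.612 RPKM. The part of these cell types in the muscle values was not tested.

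In adipose tissue the hyperinsulinemic monkey lay inside the control range for each of the 6 members. All 6 were tested among 11981 genes, and edgeR called 0 of them, against 0% of all genes tested, with 0 members and 286 of all genes at an unadjusted p under 0.05. DESeq2 called 0 members and 11 of all genes. The log2 differences ran from -0.42 (standard error 0.614, interval -1.79 to 0.95) for *LSS* to 0.15 (standard error 0.753, interval -1.53 to 1.83) for *IDI1*. The others were 0.07 (standard error 0.727) for *SQLE*, 0.06 (standard error 0.597) for *DHCR7*, 0.04 (standard error 0.548) for *HMGCS1* and -0.05 (standard error 0.50) for *SREBF2*. Their median was 0.05, that of all genes tested was -0.06, and rhesus_950807 exceeded all 4 controls for 0 of 6 members and for 27.9% of all genes tested. The edgeR adjusted p was 1.0 for each member. The intervals reached beyond a 2-fold difference in both directions for 5 members, and in the lower direction for *LSS*, so differences of that size were not detectable with these animals.

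The adipose library of rhesus_950807 lay outside the control range for the sums of 7 of 10 lists of cell type markers. Of all single genes tested it lay above all 4 controls for 27.9% and below all 4 for 7.8%. The 8 matched macrophage markers summed to 725 RPKM, against 182 to 554 RPKM in controls, the 5 matched T and NK cell markers to 23.4 RPKM, against 5.03 to 15.3 RPKM, and the 7 fibroblast markers to 2935 RPKM, against 1423 to 2435 RPKM. The 7 matched markers of muscle fibers summed to 31.8 RPKM there, against 35.1 to 334 RPKM in controls. Most of that sum was *TNNT3*, at 23.0 RPKM, against 13.3 to 75.8 RPKM in controls. The 7 matched endothelial markers summed to 206 RPKM, against 129 to 191 RPKM in controls. Of these only *PECAM1* was above all 4 controls (92.3 RPKM, against 48.4 to 79.3 RPKM). *TIE1* was below all 4 (7.85 RPKM, against 8.65 to 10.9 RPKM), and the rest lay inside the range. The 4 matched erythroid markers summed to 26.9 RPKM, of which *ALAS2* gave 22.7 RPKM, against 3.50 to 23.5 RPKM in controls. The 6 steroidogenic markers summed to 0.625 RPKM, against 1.09 to 5.16 RPKM, with 1 gene averaging over 1 RPKM. In each of these lists edgeR called 0 genes, and the part of these cell types in the adipose values was not tested.

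Which control was left out set the sign of 5 of these 6 differences. Without rhesus_940129 they were 0.23 for *SREBF2*, 0.43 for *SQLE* and 0.48 for *DHCR7*, and -0.13 for *HMGCS1*, -0.15 for *IDI1* and -0.08 for *LSS*. Without the adipose libraries of rhesus_920401 and rhesus_940313, those with the higher *ACTA1*, they were -0.37 for *SREBF2*, -0.42 for *SQLE*, -0.34 for *DHCR7*, -0.92 for *LSS*, -0.13 for *HMGCS1* and 0.36 for *IDI1*. None of these passed the test.

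**Figure D3:**
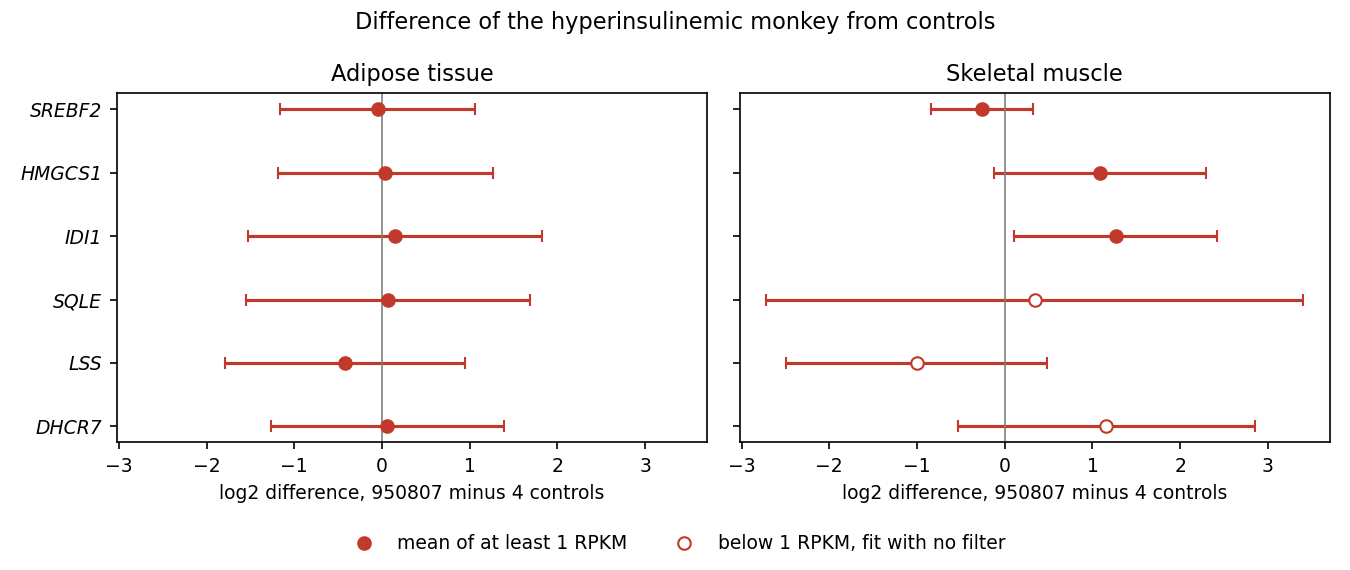
Log2 difference between the hyperinsulinemic monkey rhesus_950807 and the 4 controls for each member in adipose tissue (left) and skeletal muscle (right), with 95% intervals from edgeR. Open points are members with a mean below 1 RPKM, taken from the fit with no minimum, and the interval of *IDI1* in muscle is the only one that leaves out 0.

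Other genes around the pathway gave no call in either tissue in the edgeR fits described above. Under the alternatives only the 2 genes of each list with the smallest p in a tissue were looked up. Of these, *FASN* in adipose tissue was called when 2 libraries were left out, and the rest of the lists was not examined there. Of the other enzymes, 5 were tested in muscle with a median log2 difference of -0.12, and *MVD* had the smallest p, at -0.90 (standard error 0.362, edgeR adjusted p = 0.511). In adipose tissue 8 were tested with a median of -0.60, against -0.06 for all genes. There *ACAT2*, the acetyl-CoA acetyltransferase of the first step, was at 5.30 RPKM in rhesus_950807, against 7.83 to 25.2 RPKM in controls, and *TM7SF2*, a sterol reductase, at 6.62 RPKM, against 11.1 to 38.4 RPKM. These were the only 2 of the 8 genes of the list below all 4 controls, against 7.8% of all genes tested, while *LBR* lay above all 4 controls. *ACAT2* and *TM7SF2* had log2 differences of -1.95 (standard error 0.701) and -1.89 (standard error 0.715) and an edgeR adjusted p of 1.0 each. The fatty acid synthesis genes, which the related factor SREBP-1 drives, had a median of -1.74 in adipose tissue over 6 tested, with *FASN* at -3.99 (standard error 1.64, edgeR adjusted p = 1.0), and -0.33 in muscle over 5 tested. Without the adipose libraries of rhesus_920401 and rhesus_940313, *FASN* was at -4.65 and was called, with rhesus_950807 set against 2 controls. Of the libraries left out, rhesus_920401 had *FASN* at 57.9 RPKM, below the 68.7 RPKM of rhesus_950807, and rhesus_940313 had 691 RPKM. The controls kept were rhesus_940129, at 2142 RPKM, and rhesus_950509, at 801 RPKM, so this call depends on which controls were kept.

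Regulators of SREBP processing had a median log2 difference of 0.00 in muscle over 9 tested and -0.31 in adipose tissue over 12 tested. None of these regulators was called. *SREBF1*, which encodes SREBP-1, had a muscle difference of -1.63 (standard error 0.715, edgeR adjusted p = 0.551). Genes of cholesterol uptake and transport had medians of -0.21 in muscle and -0.19 in adipose tissue over 8 tested in each, among them *OSBP*, an oxysterol-binding lipid carrier, at 0.85 (standard error 0.251) and *NPC2*, a lysosomal cholesterol carrier, at -1.11 (standard error 0.349), both in muscle with an edgeR adjusted p of 0.482. The uptake and transport list had 0 called in either tissue. Efflux and esterification genes had medians of -0.25 over 4 tested in muscle and -0.22 over 9 tested in adipose tissue, where *ABCG1*, a sterol exporter, was at -1.52 (standard error 0.475, edgeR adjusted p = 1.0). Genes of the isoprenoid branch had medians of 0.35 over 5 tested in muscle and -0.35 over 6 tested in adipose tissue.

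The difference between rhesus_950807 and the controls was then compared between tissues by an interaction term over all 10 libraries. With the muscle difference taken from the adipose difference, the remainder was -1.12 (standard error 1.08, interval -3.48 to 1.23) for *IDI1*, -1.04 (standard error 0.879, interval -2.96 to 0.87) for *HMGCS1* and 0.28 (standard error 0.502, interval -0.81 to 1.37) for *SREBF2*. Of these 3 members edgeR called 0, against 0% of the 7938 genes tested, with 0 members and 434 of all genes at an unadjusted p under 0.05, and DESeq2 called 0 members and 16 of all genes. The larger muscle values of *IDI1* and *HMGCS1* are therefore not shown to be particular to muscle.

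The tissues were compared within the 4 controls, the contrast with replicates on both sides. By RPKM, 5 of the 6 members were higher in adipose tissue than in the muscle of the same animal in all 4 controls. The adipose level was 9.24 to 18.5 times the muscle level for *DHCR7*, 8.59 to 17.9 times for *LSS*, 5.79 to 55.0 times for *SQLE*, 4.13 to 7.58 times for *HMGCS1* and 2.20 to 4.74 times for *SREBF2*. *IDI1* was at 2.52 to 5.39 times its muscle level in 3 controls and at 0.451 times in rhesus_940129. In rhesus_950807 the ratio was 2.59 for *HMGCS1* and 7.12 for *DHCR7*, both below every control, and 19.4 for *LSS*, above every control. For *IDI1* it was 1.12, for *SQLE* 8.37 and for *SREBF2* 3.64, all inside the control range. The muscle reads of rhesus_950807 were 74 for *DHCR7* and 59 for *LSS*. The share of all genes outside the control range by this ratio was not computed, so these positions are not a result about the members.

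RPKM follow the mapped total, and the 7 matched markers of muscle fibers summed to 35.1 to 334 RPKM in control adipose tissue, against 66579 to 87062 RPKM in control muscle. All 4 adipose libraries exceeded all 4 muscle libraries for *SREBF2*, *HMGCS1*, *SQLE*, *LSS* and *DHCR7*, and likewise for 65% of the genes tested. TMM scaling, which allows for such a shift, left a median log2 difference of 0.23 over all genes, against 1.61 with scaling to mapped totals.

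Relative to other genes, *DHCR7*, *LSS* and *HMGCS1* rose in adipose tissue, and *SREBF2* and *IDI1* did not pass the test. Under TMM scaling the log2 difference of adipose tissue minus muscle was 2.51 (standard error 0.404, edgeR adjusted p = 0.000247) for *DHCR7* and 2.28 (standard error 0.437, edgeR adjusted p = 0.000835) for *LSS*, and both were called under each of the alternatives in which they could be fitted. *HMGCS1* rose by 1.05 (standard error 0.399, edgeR adjusted p = 0.0374), just past the required difference of 1. It missed the call in DESeq2 at 0.95, with median-of-ratios scaling at 0.95, with no minimum at 0.997, and without each of 3 controls in turn, rhesus_920401 (0.99), rhesus_940129 (1.02) and rhesus_940313 (1.08). *SREBF2* was at 0.24 (standard error 0.249, edgeR adjusted p = 0.418) and *IDI1* at -0.08 (standard error 0.490, edgeR adjusted p = 0.894), both not called, and without rhesus_940129 they were at -0.13 and 0.39. *SQLE*, whose mean was below the minimum, was at 1.90 (standard error 0.701, edgeR adjusted p = 0.0362) with no minimum, and that call was lost without rhesus_940129 (1.57), rhesus_940313 (1.68) or rhesus_950509 (2.19).

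Of the 5 members tested, 3 were called as higher in adipose tissue and 0 as lower, against 29.6% of 11173 genes called as higher there. With scaling to mapped totals all 5 were called, *SREBF2* at 1.62 and *IDI1* at 1.26 among them, against 63% of all genes, so for these 2 genes both the call and, for *IDI1*, the direction depend on the scaling. The median was 1.05 over the 5 members under TMM scaling.

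**Figure D4:**
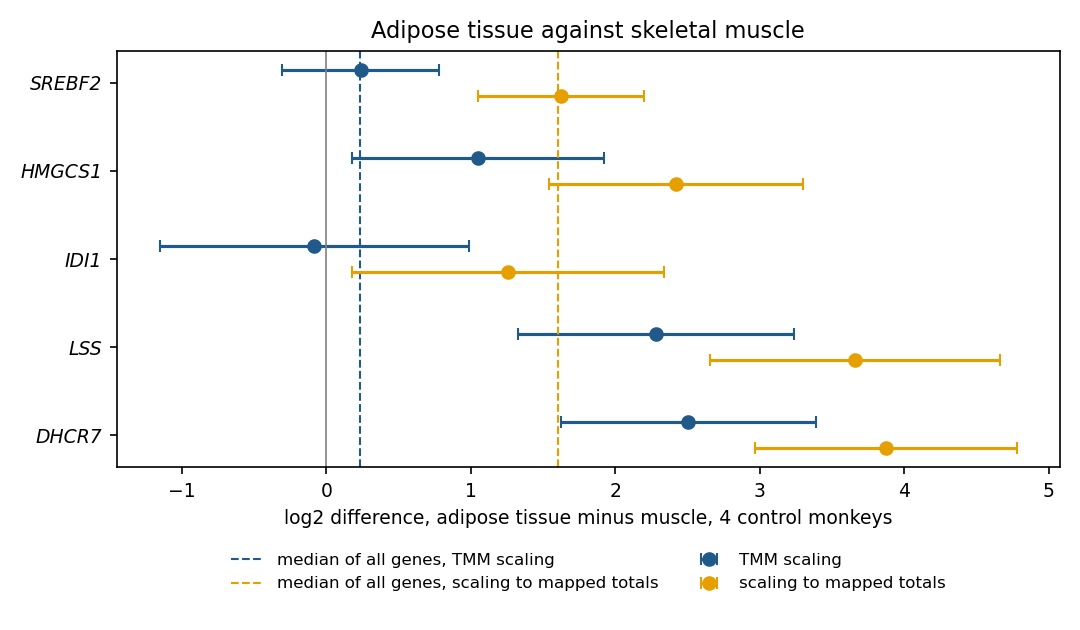
Log2 difference of adipose tissue minus skeletal muscle in the 4 control monkeys for the 5 members tested, with 95% intervals from edgeR, under TMM scaling (blue) and scaling to mapped totals (orange). Dashed lines are the medians of all genes tested, 0.23 and 1.61, and *DHCR7* and *LSS* lie furthest above them under both scalings.

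Among the other enzymes of cholesterol synthesis, 3 of 8 tested were called as higher in adipose tissue and 0 as lower, against 29.6% of all genes called as higher and 22% as lower, so the count of higher calls was near that of all genes. The median log2 difference of the list was 0.57, against 0.23 for all genes. *NSDHL*, a sterol dehydrogenase of the demethylation steps, was at 3.69 (standard error 0.350), *ACAT2* at 3.21 (standard error 0.511) and *LBR* at 1.60 (standard error 0.398).

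The lists around the pathway are set against the same shares of all genes, 29.6% called as higher in adipose tissue and 22% as lower, and differences between lists were not tested. All 6 tested genes of fatty acid synthesis (*THRSP*, *ACACA*, *ACLY*, *FASN*, *ME1* and *ACSS2*) rose in adipose tissue, with a median log2 difference of 4.01. Of the efflux, esterification and oxysterol genes, 6 of 8 rose, namely *SOAT1*, the cholesterol esterifying enzyme, *APOE*, *NR1H3*, *CAV1*, *ABCG1* and *ABCA1*, and *NR1H2*, a liver X receptor, fell by 1.93, with a median of 3.32 over the list. Of the uptake and transport genes, 3 of 8 rose (*SCARB1*, the HDL receptor, *LRP1* and *NPC2*) and *VLDLR* fell by 1.53, with a median of 0.42. Of the SREBP regulators, 4 of 11 rose (*ERLIN2*, *ERLIN1*, *SP1* and *INSIG2*) and *NFYC* and *FBXW7* fell by 1.22 and 1.03, and of the isoprenoid branch *DHDDS* rose by 1.52 and *PDSS2* fell by 1.08 among 6 tested. For these last 3 lists the share called as higher was near or below that of all genes. The falls of *NFYC*, *FBXW7* and *PDSS2* turned to positive differences of 0.16, 0.33 and 0.29 with scaling to mapped totals, none called, and under that scaling *VLDLR* and *NR1H2* lost their calls at -0.18 and -0.53. Leaving out 1 control also ended the call of *INSIG2* (1.05 without rhesus_920401, 0.83 without rhesus_940313 and 1.06 without rhesus_950509), *ACSS2* (0.60 without rhesus_940129 and 1.06 without rhesus_940313), *FBXW7* (-0.82 without rhesus_940129 and -1.01 without rhesus_940313) and *PDSS2* (-0.96 without rhesus_940129).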

How the data were processed

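The members and gene lists were chosen with earlier results of these data known. The authors mapped the reads with TopHat (1.2.0 in the submitters' processing notes, another release in the methods) and deposited read counts per Ensembl gene. Build, annotation and counter are not stated in those sources. The deposited RPKM values were checked to be these counts over transcript length and the authors' mapped total. Symbols came from an Ensembl macaque table, which named 15556 of 28595 genes. After the files were opened, and with values in view, 4 genes were taken off the lists for a reason other than their values, and they are not reported here. Promoter motifs were not analysed here.

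Counts were tested with edgeR 4.0.16 in R 4.3.3 (TMM, quasi-likelihood, two-sided, Benjamini-Hochberg adjustment over all genes tested). Genes had to average 1 RPKM or more in the libraries fitted, and for the interaction in each tissue. A call was an adjusted p under 0.05, and between tissues also an absolute log2 difference of at least 1. An exact permutation of 1 animal against 4 could not go below p = 0.2, so none was run. Whether libraries come from separate samplings beyond the animal is not stated. Alternatives were DESeq2 1.42.0, limma 3.58.1 on log2(RPKM + 1) and log2(RPKM + 0.1), median-of-ratios and mapped-total scaling, no minimum, a minimum of 5 RPKM, robust estimates, leaving out each control, all 10 libraries in 1 fit, leaving out 2 adipose libraries, and the animal as a block. Combinations of no minimum with another choice were added after seeing the data. The tissues pair by animal, yet deviations from the control means correlated across genes by -0.21 to 0.14 between the tissues of 1 animal. The scripts were tested on simulated data. Named beside the members are at most 4 genes of each list with the smallest p and any gene called.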

Additional observations from a re-analysis of the deposited data

How the results depend on the processing

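Over the 8306 and 11981 genes tested, the counts of calls were 0 in muscle and in adipose tissue, and other settings moved them without calling a member. In muscle DESeq2 called 88, no minimum 10, scaling to mapped totals 3, and median-of-ratios scaling, robust estimates and limma with either pseudocount 1 each. Leaving out a control gave 0 to 14 there, with 14 without rhesus_940313. In adipose tissue DESeq2 called 11, limma with the replicate block 4 and the fit without the libraries of rhesus_920401 and rhesus_940313 33, and leaving out a control gave 0 to 6, with 6 without rhesus_920401. For the interaction between tissue and animal DESeq2 called 16, against 0. Between the tissues of the controls a minimum of 5 RPKM called 3325 of 6131 genes, against 5767.

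Several members in adipose tissue changed sign, none with a call, and the cause was not tested. *SREBF2* was at 0.15 with mapped totals, 0.20 with limma, 0.21 with its lower pseudocount and 0.20 with the replicate block, and -0.16 to 0.23 leaving out a control. *HMGCS1* was at -0.025 with all 10 libraries in 1 fit, -0.13 without the libraries of rhesus_920401 and rhesus_940313, and -0.13 to 0.38 leaving out a control. Without those same 2 libraries *SQLE* was at -0.42 and *DHCR7* at -0.34, and leaving out a control gave -0.14 to 0.43 for *SQLE*, -0.11 to 0.48 for *DHCR7* and -0.15 to 0.43 for *IDI1*. *SQLE* in muscle with no minimum was -0.035 to 0.73 leaving out a control.

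Between the tissues 3 of 5 members were called, against 5 of 5 with mapped totals or the lower pseudocount, and 1 of 3 with a minimum of 5 RPKM, where fewer members were tested. *HMGCS1* also missed the call without the adipose libraries of rhesus_920401 and rhesus_940313. *IDI1* became 1.26 with mapped totals, 0.93 with limma, 1.07 with the lower pseudocount and 0.28 with the minimum of 5 RPKM, and was -0.51 to 0.39 leaving out a control. *SREBF2* was -0.13 to 0.45. With mapped totals, limma and the lower pseudocount, *PDSS2* was at 0.29, 0.25 and 0.30, *NFYC* at 0.16, 0.15 and 0.16, and *FBXW7* at 0.33, 0.23 and 0.31, none called. The animal as a replicate block changed no call of a member, and called 5712 genes, against 5767.

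The limits are the single hyperinsulinemic animal, the 2 to 169 reads that *SQLE*, *LSS* and *DHCR7* had in muscle libraries, and the muscle gene reads in control adipose libraries. The higher *ACTA1*, *CKM*, *MB* and *TNNC2* were limited to the 2 libraries left out, while reads of *PYGM* and *TNNT3* were not.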

Other observations

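The genes whose profile was most like that of the members were sought over the 10 libraries, with log2 TMM CPM centred on the mean of each tissue and averaged over the 6 members. Among 5954 other named genes that averaged 1 RPKM or more in each tissue, *MTO1* (r = 0.92), *TTC8* (r = 0.90) and *ABR* (r = 0.87) came first, and the 10 most alike ended with *MAOA* (r = 0.82). These are descriptions over libraries of 5 animals that share tissue and scaling. The average itself followed *SQLE* most closely (r = 0.91), which had 2 reads in the muscle of rhesus_940313, and *SREBF2* least (r = 0.16), so it stands for few of the members.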
